A study of Mus musculus with 8 samples.

Results

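Neurexins, neuroligins and the leucine-rich repeat transmembrane (Lrrtm) proteins were read in the striatum of mice carrying a gene trap in Brd2, which encodes a BET protein that binds acetylated histones. The set holds 9 genes (Nrxn2, Nrxn3, Nlgn1, Nlgn2, Nlgn3, Lrrtm1, Lrrtm2, Lrrtm3 and Lrrtm4) and its probes were taken by gene name; the genes were proposed with earlier results of these data known. The arrays name 24324 genes and carry 22 probes for these 9 among 39429 probes other than controls, and each probe was followed on its own. The mice were 4 adult males labelled heterozygous for the trap and 4 adult wildtype males. All were of the seventh backcross generation on the C57Bl/6J strain and came from matings between heterozygotes, per the labels, so the controls were animals of the same breeding without the trap. Total RNA was amplified and labelled with Cy3 (replicates 1 and 3) or Cy5 (replicates 2 and 4) and hybridised to 4 two-colour Agilent arrays. The 2 mice on an array were of one genotype, with replicates 1 and 2 on one array and 3 and 4 on the other.

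Neurexins are presynaptic adhesion molecules that bind across the cleft to postsynaptic partners, among them the neuroligins and the Lrrtm proteins. Each neurexin gene makes a long alpha and a short beta protein from separate promoters, and alternative splicing of the shared extracellular part sets which partners bind. In the striatum these pairs act at the excitatory inputs from cortex and thalamus and at the inhibitory contacts between projection neurons.

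Between 16398 (heterozygous replicate 3) and 24867 (heterozygous replicate 2) probes stood well above background in a sample, and no spot was saturated. The labels name the tissue as striatum, as prefrontal cortex striatum and as heart left atrium in different places. Each of the 11 striatal projection neuron markers the array carries gave signal well above background in every sample. So did 5 of 8 markers of cortical excitatory neurons. The 7 tested markers of cortical excitatory neurons had a mean level, centred over the samples, of −0.14 log2 units on the heterozygous array of replicates 1 and 2. It was −0.63 on that of replicates 3 and 4, against 0.79 and −0.02 on the corresponding wildtype arrays. Single wildtype mice ran between −0.16 and 1.74 and single heterozygous mice between −0.66 and 0.27, so the groups overlapped. The 8 tested markers of striatal projection neurons stood at 0.24 and 0.19 on the heterozygous arrays, against 0.12 and −0.55 on the wildtype arrays. Single wildtype mice ran between −1.02 and 0.33 and single heterozygous mice between −0.004 and 0.48. The 4 tested interneuron markers stood at −0.31 and 0.61 on the heterozygous arrays, against −0.46 and 0.17 on the wildtype arrays. Their difference, heterozygous minus wildtype, was 0.30, and the groups overlapped. The part of these markers in the results below was not tested, and in whole tissue fewer cells of a type and less RNA per cell cannot be told apart. Brd2 itself did not check the genotype labels. One of its probes, A_55_P1953545, averaged 8.01 ± 0.18 in heterozygous and 7.13 ± 0.26 in wildtype striatum (log2 intensity, SD, n = 4 each), a difference of 0.88 with a limma adjusted p of 0.499. The other, A_55_P1958678, differed by 0.29 (adjusted p = 0.932), and the position of the trap relative to either probe is unknown here.

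No probe of the set passed the test between the genotypes. Of the 22 probes, 19 were well above background in at least 4 samples, and 13 of these, from 7 genes, had 8 unflagged values and were tested. In limma with the array as a random block, 0 of the 13 had an adjusted p under 0.05, where 0% of the 18399 probes tested on the array did. At an unadjusted p under 0.05 there were 2 of 13, both lower in heterozygous striatum, against 7.96% of all probes (3.88% higher and 4.08% lower). The groups did not overlap at 3 of 13 probes, all lower in heterozygous striatum, against 16.9% of all probes (8.91% lower and 8.01% higher). In all, 4 of the 13 were higher and 9 lower, with a median difference of −0.28 log2 units, where the median of all probes was −0.02 and 48% were higher. The adjusted p-values of the 13 ran between 0.437 and 0.996.

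Arrays of one genotype lay further apart than the 2 mice on one array, and an array cannot be told from its pair of mice. The 2 mice on an array were read from the same spots and normalised to each other. The part of this in the contrast was not tested. At the median of the 13 probes, the 2 mice on one array differed by 0.16 log2 units. The means of the 2 arrays of one genotype differed by 0.36. Over all probes tested these medians were 0.16 and 0.33. The genotypes differed by 0.50 in size at the median of the 13 probes, where the median over all probes tested was 0.26. The number of arrays, 2 for each genotype, limits the precision.

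**Figure D1:**
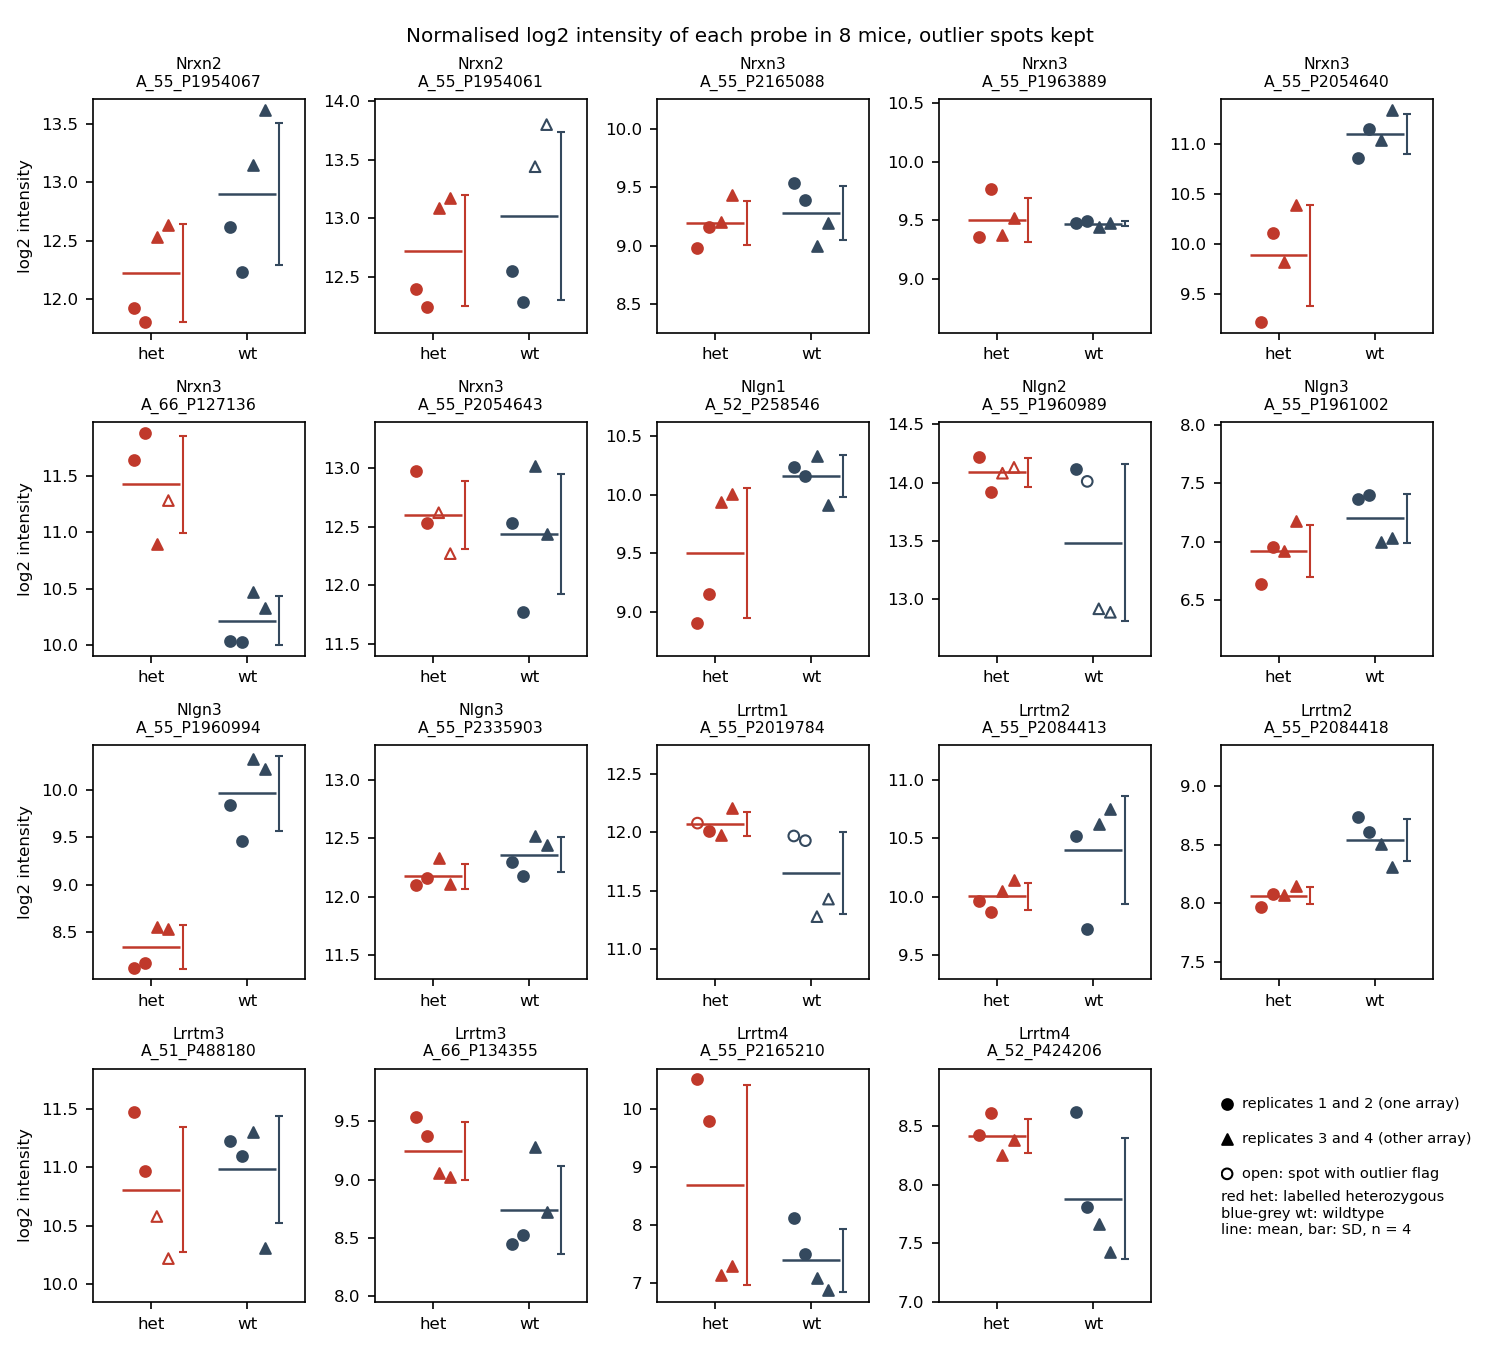
Normalised log2 intensity of the 19 probes above background in each mouse, with heterozygous mice (red) left of wildtype mice (blue-grey), a line at the mean and a bar of 1 SD (n = 4 each). Circles are replicates 1 and 2, triangles replicates 3 and 4, and open symbols are spots with an outlier flag, which are kept in this plot. The groups separate at Nlgn3 A_55_P1960994, Nrxn3 A_55_P2054640 and Lrrtm2 A_55_P2084418 among the 13 probes tested.

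Nrxn3 was read by 6 probes on chromosome 12, of which 4 are shown because they gave different genotype differences. Sequences are those of the probes in the scanner files, 5′ to 3′, with positions on mm9. A_55_P2165088 (chr12:91052021-91052080) lies in the coding sequence special to the beta form, and the files list it for 1 of the 3 RefSeq transcripts of Nrxn3. A_55_P1963889 (chr12:91407414-91407473) lies in the coding sequence of the last LNS domain, the neurexin domain that binds neuroligins and Lrrtm proteins. A_55_P2054640 (chr12:91522030-91522089) codes for the extracellular stretch between that domain and the membrane. A_66_P127136 lies 49352 bases further along the chromosome (chr12:91571382-91571441), and its first 30 bases are given. The files list the last 3 of these probes for all 3 RefSeq transcripts.
Nrxn3 A_55_P2165088: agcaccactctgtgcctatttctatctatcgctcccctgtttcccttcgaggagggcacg
Nrxn3 A_55_P1963889: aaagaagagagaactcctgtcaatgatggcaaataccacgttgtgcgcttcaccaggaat
Nrxn3 A_55_P2054640: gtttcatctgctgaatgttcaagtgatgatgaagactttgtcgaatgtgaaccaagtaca
Nrxn3 A_66_P127136: cagaaatacccttatctggttctgaccagt

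The membrane-proximal probe of Nrxn3, A_55_P2054640, read 9.22, 10.11, 9.82 and 10.39 log2 units in heterozygous replicates 1 to 4, against 10.86, 11.15, 11.04 and 11.34 in wildtype replicates 1 to 4. Every heterozygous mouse lay below every wildtype mouse. The difference was −1.21 ± 0.34 log2 units (SE, 95% interval −1.99 to −0.44), a 2.32-fold lower intensity in heterozygous striatum, with a limma adjusted p of 0.462. It was larger than the gap of 0.44 between the heterozygous arrays and of 0.18 between the wildtype arrays, as at 22.6% of all probes tested.

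The 2 upstream coding probes of Nrxn3 differed little between the genotypes. The probe of the last LNS domain, A_55_P1963889, averaged 9.50 ± 0.19 in heterozygous and 9.47 ± 0.02 in wildtype mice (SD, n = 4 each), a difference of 0.03 with an interval of −0.57 to 0.63. The beta probe, A_55_P2165088, averaged 9.20 ± 0.19 in heterozygous and 9.28 ± 0.23 in wildtype mice, a difference of −0.08 with an interval of −0.72 to 0.55. Both signs turned with the scanner's processed signals, to −0.046 for A_55_P1963889 and 0.13 for A_55_P2165088. The intervals leave room for changes of either sign.

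The 3′ probe A_66_P127136 of Nrxn3 went the other way and could be compared only with outlier spots kept, since the spot of heterozygous replicate 4 carried an outlier flag. It read 11.64, 11.88, 10.90 and 11.28 log2 units in heterozygous replicates 1 to 4, against 10.04, 10.03, 10.47 and 10.33 in wildtype replicates 1 to 4. Every heterozygous mouse lay above every wildtype mouse, and the lowest heterozygous value was that of replicate 3, which carried no flag. With outlier spots kept, the groups did not overlap at 18.2% of all probes. The difference was 1.21 ± 0.35 log2 units (SE, interval 0.41 to 2.01), with a limma adjusted p of 0.385 over 22288 probes. In the authors' value table, which holds all 8 mice at this probe, it was 1.34.

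A_55_P2054643, 1933 bases beyond it, averaged 12.60 ± 0.29 in heterozygous and 12.44 ± 0.51 in wildtype mice with outlier spots kept (SD, n = 4 each), a difference of 0.16. The probe furthest upstream, A_55_P2105403 (chr12:90033278-90033337), was well above background in 2 of 4 heterozygous and 0 of 4 wildtype samples. It averaged 6.98 ± 0.17 in heterozygous and 6.63 ± 0.08 in wildtype mice (SD, n = 4 each). Both means hold samples not well above background, so no bound on the fold is given. That probe was not tested.

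Whether probes of Nrxn3 differed in their response was tested on the difference between 2 probes within each mouse. A_55_P2054640 minus A_55_P2165088 averaged 0.69 ± 0.34 in heterozygous and 1.82 ± 0.36 in wildtype mice (SD, n = 4 each). A_55_P2054640 minus A_55_P1963889 averaged 0.38 ± 0.41 in heterozygous and 1.63 ± 0.20 in wildtype mice. The groups did not overlap in either pair, and each gave p = 0.0286 in a two-sided exact permutation test over samples, the smallest that 4 against 4 mice allow. With the scanner's processed signals the first pair kept 0.0286, adjusted to 0.114. The groups overlapped in the second, with a difference of −0.80 and an exact permutation p of 0.0857. In Nrxn3, Nlgn3, Lrrtm2 and Lrrtm4 there were 8 such pairs of probes, of which 4 had an exact permutation p of 0.0286. Adjusted over the 8 pairs this was 0.0572, so 0 passed. All 4 hold A_55_P2054640 or Nlgn3 A_55_P1960994, whose groups already did not overlap on their own, as at 16.9% of all probes. The 4 are thus not independent, and the share among probe pairs over the whole array was not computed. One of the 4 rests on the dim Nlgn3 probe A_55_P1961002, which was well above background in 5 of 8 samples. Over array means, where 2 arrays stand against 2, the smallest p is 0.333, so the array's part cannot be tested.

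With outlier spots kept, a comparison added after the data were seen, A_66_P127136 minus A_55_P2054640 lay between 0.89 and 2.42 in heterozygous and between −1.12 and −0.57 in wildtype mice. Of the 17 pairs then available, 9 reached the exact permutation p of 0.0286, which came to 0.054 after adjustment. Most of the 9 have a probe in common with another, and the share over the whole array was not computed.

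**Figure D2:**
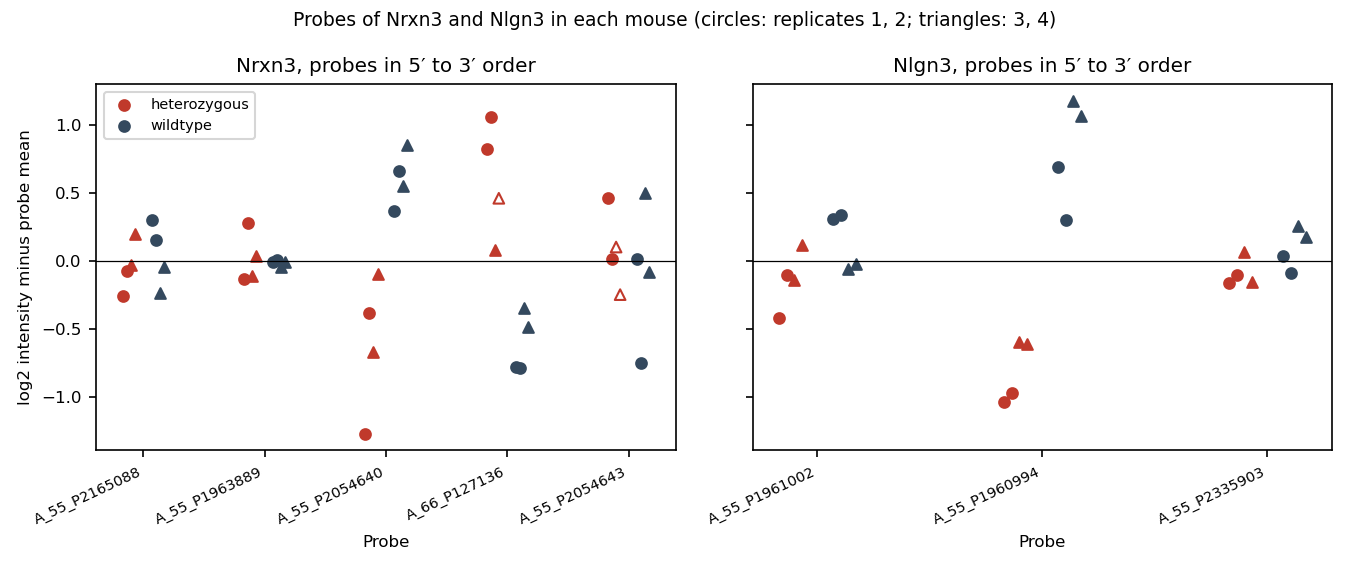
Log2 intensity of each Nrxn3 probe (left) and Nlgn3 probe (right) minus that probe's mean over the 8 mice, in 5′ to 3′ order, with heterozygous mice (red) left of wildtype mice (blue-grey). Circles are replicates 1 and 2, triangles replicates 3 and 4, open symbols spots with an outlier flag. Heterozygous mice lie below wildtype mice at Nrxn3 A_55_P2054640 and Nlgn3 A_55_P1960994 and above them at Nrxn3 A_66_P127136.

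Nrxn2, the second neurexin of the set, was read by 2 probes on chromosome 19 that lie 1031 bases apart. A_55_P1954067 (chr19:6532125-6532184) read 11.93, 11.81, 12.53 and 12.64 in heterozygous replicates 1 to 4, against 12.63, 12.23, 13.15 and 13.62 in wildtype replicates 1 to 4. Replicates 3 and 4 were the higher pair in both genotypes, and the groups overlapped. The difference of −0.68 ± 0.48 (SE, limma adjusted p = 0.808) was smaller than the gap of 0.71 between the heterozygous arrays and of 0.96 between the wildtype arrays. A_55_P1954061 differed by −0.29 ± 0.48 with outlier spots kept (adjusted p = 0.936), with the same array order.

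Nlgn3 encodes a neuroligin found at excitatory and inhibitory synapses, and its 3 probes lie on the X chromosome within a short stretch. The first 2 are shown because the middle probe carried the lowest p of the set while its neighbours did not follow it. A_55_P1961002 (chrX:98515760-98515819) lies 839 bases before A_55_P1960994 (chrX:98516599-98516658), and A_55_P2335903 lies 2289 bases after it. The first 30 bases of A_55_P1961002 and A_55_P1960994 are given.
Nlgn3 A_55_P1961002: caaaaacacaaatccagacgtgaacctgaa
Nlgn3 A_55_P1960994: cactaacggaaacccatggagtttgtcctt

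The middle Nlgn3 probe, A_55_P1960994, read 8.12, 8.18, 8.56 and 8.54 log2 units in heterozygous replicates 1 to 4, against 9.85, 9.46, 10.33 and 10.22 in wildtype replicates 1 to 4. All heterozygous mice lay below all wildtype mice, and replicates 3 and 4 were the higher pair in both genotypes. The difference was −1.62 ± 0.32 log2 units (SE, interval −2.35 to −0.89), a 3.07-fold lower intensity in heterozygous striatum. Its unadjusted limma p was 0.000735 and its adjusted p 0.437, equal to the lowest on the array. Other probes tied at that adjusted value, among them Arpc1b A_55_P2023076 with an unadjusted limma p of 0.00408. Array gaps were 0.40 in heterozygous and 0.63 in wildtype mice.

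The other Nlgn3 probes differed less. A_55_P1961002 was dim, well above background in 2 heterozygous and 3 wildtype samples, and differed by −0.28 ± 0.27 (SE, adjusted p = 0.895). A_55_P2335903, which has at least 20 bases in common with 6 probes for 6 other genes, differed by −0.19 ± 0.24 (adjusted p = 0.934), and by 0.075 with the scanner's processed signals.

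Within each mouse, A_55_P2335903 minus A_55_P1960994 averaged 3.83 ± 0.19 in heterozygous and 2.40 ± 0.25 in wildtype mice (SD, n = 4 each, exact permutation p = 0.0286, adjusted 0.0572). With the scanner's processed signals the exact permutation p stayed at 0.0286, the smallest possible, and its adjusted value was 0.114. Since A_55_P2335903 has bases in common with probes for 6 other genes, the pair may not read Nlgn3 alone. The differences between A_55_P1961002 and the other probes are not read further, since it was near background in 3 mice.

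The probes outside the set whose centred values over the 8 mice came nearest to those of Nlgn3 A_55_P1960994 were for Zc3h7a, a CCCH zinc finger protein, B4galt5, a galactosyltransferase of glycosphingolipid synthesis, and Arpc1b, a subunit of the Arp2/3 complex of actin. Their root mean square differences from it were 0.205 for Zc3h7a, 0.227 for B4galt5 and 0.246 for Arpc1b. Their genotype differences were −1.37, −1.50 and −1.22 log2 units in that order. They were ranked on these same samples, so their likeness is a description.

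Nlgn1 encodes the neuroligin of excitatory synapses, and A_52_P258546 (chr3:25330886-25330945) read 8.90, 9.15, 9.94 and 10.01 in heterozygous replicates 1 to 4, against 10.25, 10.16, 10.33 and 9.91 in wildtype replicates 1 to 4. Replicates 1 and 2 of the heterozygous mice lay below all others, while replicates 3 and 4 lay among the wildtype mice. The difference of −0.66 ± 0.40 (SE, adjusted p = 0.758) was smaller than the gap of 0.95 between the heterozygous arrays. The other probe, A_55_P2061640, was not well above background in any sample.

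Nlgn2 encodes the neuroligin of inhibitory synapses. Its single probe, A_55_P1960989 (chr11:69636641-69636700), carried outlier flags in 2 heterozygous and 3 wildtype samples and could be compared only with those spots kept. It then read 14.22, 13.92, 14.08 and 14.13 in heterozygous replicates 1 to 4, against 14.12, 14.01, 12.92 and 12.89 in wildtype replicates 1 to 4. Only the wildtype array of replicates 3 and 4 stood lower, and both of its spots carried the flag. The difference was 0.60 ± 0.38 (SE, adjusted p = 0.728).

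**Figure D3:**
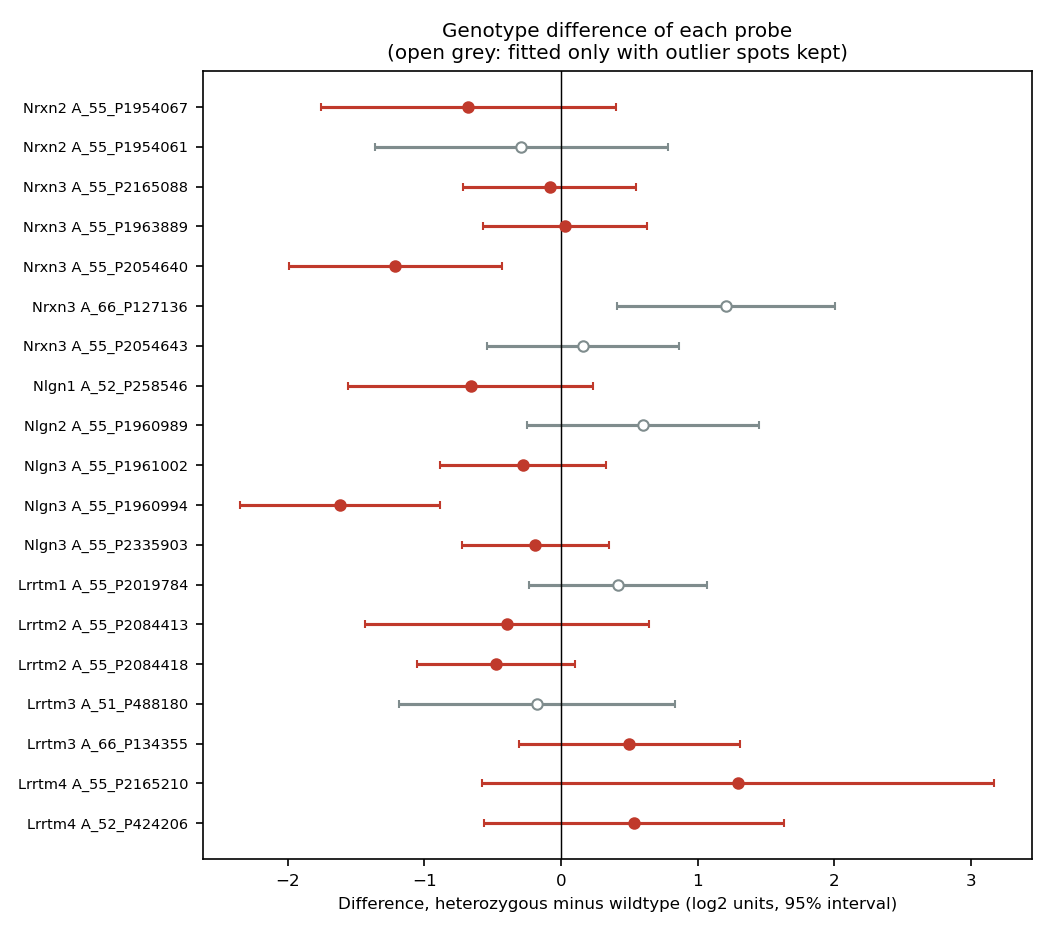
Difference of each probe between the genotypes, heterozygous minus wildtype in log2 units, with its 95% interval from limma. Filled red points are the 13 probes tested and open grey points the 6 that could be compared only with outlier spots kept. The intervals leave out 0 at Nrxn3 A_55_P2054640, Nrxn3 A_66_P127136 and Nlgn3 A_55_P1960994, and 0 probes passed after adjustment.

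The Lrrtm proteins are postsynaptic neurexin partners of excitatory synapses, and the difference of Lrrtm2 was negative at both of its probes on chromosome 18. A_55_P2084418 read 7.97, 8.08, 8.07 and 8.15 in heterozygous replicates 1 to 4, against 8.74, 8.61, 8.51 and 8.32 in wildtype replicates 1 to 4. The groups did not overlap, with heterozygous replicate 4 nearest to wildtype replicate 4. The difference was −0.47 ± 0.26 (SE, interval −1.05 to 0.10, limma adjusted p = 0.716). A_55_P2084413 averaged 10.01 ± 0.12 in heterozygous and 10.40 ± 0.46 in wildtype mice (SD, n = 4 each), a difference of −0.40 (adjusted p = 0.922), with wildtype replicate 2 below every heterozygous mouse.

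Lrrtm4, which also binds heparan sulphate proteoglycans, had the widest spread of the set. A_55_P2165210 (chr6:80759124-80759183) read 10.52, 9.80, 7.15 and 7.30 in heterozygous replicates 1 to 4, against 8.12, 7.49, 7.08 and 6.88 in wildtype replicates 1 to 4. The array of heterozygous replicates 1 and 2 stood apart from the other 6 mice. The difference of 1.30 ± 0.83 (SE, adjusted p = 0.784) was smaller than the gap of 2.94 between the heterozygous arrays, and it was −0.17 without the array of heterozygous replicates 1 and 2. In the authors' value table, which is empty for 2 of the 4 heterozygous mice at this probe, it was −0.29. A_52_P424206, 696 bases further along, averaged 8.42 ± 0.15 in heterozygous and 7.88 ± 0.52 in wildtype mice (SD, n = 4 each), a difference of 0.54 (adjusted p = 0.881). There, wildtype replicate 1 lay above every heterozygous mouse. A_55_P2102489 was not well above background in any sample.

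Lrrtm3 was read 158945 bases apart by a pair of probes on chromosome 10. A_66_P134355 read 9.53, 9.37, 9.05 and 9.02 in heterozygous replicates 1 to 4, against 8.45, 8.52, 9.28 and 8.72 in wildtype replicates 1 to 4. Only wildtype replicate 3 reached into the heterozygous range. The difference was 0.50 ± 0.36 (SE, adjusted p = 0.810). A_51_P488180 differed by −0.18 ± 0.45 with outlier spots kept (adjusted p = 0.962).

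Lrrtm1, known for its expression in forebrain neurons, had a single probe, A_55_P2019784 (chr6:77195379-77195438), with outlier flags in 1 heterozygous and all 4 wildtype samples. With the spots kept it read 12.08, 12.01, 11.98 and 12.21 in heterozygous replicates 1 to 4, against 11.97, 11.93, 11.28 and 11.43 in wildtype replicates 1 to 4. The groups did not overlap, and heterozygous replicate 3 and wildtype replicate 1 nearly met. The difference was 0.42 ± 0.29 (SE, interval −0.24 to 1.07, adjusted p = 0.759). Over all 19 probes with outlier spots kept, 0 passed the adjusted test, 3 had an unadjusted p under 0.05 against 8.8% of all probes, 8 were higher and 11 lower. In that setting the groups did not overlap at 5 of the 19, against 18.2% of all probes.

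Other genes of the same adhesion system were read by the brightest tested probe of each gene, in 4 lists, and 0 of their genes passed the adjusted test, against 0% of the 13155 named genes. Of all named genes 7.65% had an unadjusted p under 0.05, 48% were higher and the median difference was −0.02. Of the neurexin ligands and regulators, 23 of 31 genes on the array were tested, 7 higher and 16 lower, with a median of −0.19, which was −0.047 without wildtype replicate 1. Dag1, which encodes the alpha-neurexin ligand dystroglycan, differed by 0.77 ± 0.26 (SE, adjusted p = 0.507). Mdga2, whose protein blocks neuroligins from binding neurexins, differed by −0.67 ± 0.28 (adjusted p = 0.607) and by 0.13 at its other probe. At the first of these probes the gap between the wildtype arrays was 0.69. Nxph4, a neurexophilin, differed by −0.62 ± 0.29 (adjusted p = 0.656). The groups did not overlap at 4 of the 23 genes, against 16.9% of all probes, namely Dag1, Mdga2, Nxph4 and Nxph3. Nxph3, another neurexophilin, was named after its values were seen and had the lowest difference of the list, −1.13 ± 0.65 (SE, limma adjusted p = 0.744).

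The LAR phosphatases and netrin-G ligands form a neighbouring set of synapse organisers. Of the 19 tested, 8 were higher and 11 lower, with a median of −0.04. Its sign turned in several settings that leave out a mouse or an array, between −0.08 and 0.12. With Cy5 samples alone it was 0.059. Ptprf, the LAR receptor phosphatase itself, differed by 0.84 ± 0.29 (SE, adjusted p = 0.516), with no overlap, but by −0.19 with the scanner's processed signals. Lrfn3 differed by 0.37 and Ptprd, a presynaptic receptor phosphatase, by 0.21, with −0.25 at its other probe.

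The intracellular partners anchor neurexins and neuroligins to scaffolds. Of the 19 tested, 11 were higher and 8 lower, with a median of 0.01. Its sign turned in several settings that leave out a mouse or an array, between −0.22 and 0.23. With Cy3 samples alone it was −0.0053. Mpp2, a membrane-associated guanylate kinase, differed by −1.20 ± 0.40 (SE, adjusted p = 0.508). Ppfia2, liprin-alpha2 of the active zone, differed by 1.36 ± 0.54 (adjusted p = 0.585), with a gap of 1.80 between the heterozygous arrays. Caskin1, which binds the neurexin partner CASK, differed by −0.71 ± 0.31 (adjusted p = 0.620), with a gap of 0.83 between the heterozygous arrays. At 3 of the 19 the groups did not overlap, against 16.9% of all probes. These were Mpp2, Caskin1 and Gopc, the last of which was named after its values were seen and differed by 0.42.

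Of the genes for neurexin splicing and shedding, 14 of 19 were tested, with 5 higher, 9 lower and a median of −0.13, which was 0.019 without wildtype replicate 4. Elavl3, a neuronal RNA-binding protein, differed by −0.76 ± 0.27 (SE, adjusted p = 0.530). Nova2, a splicing regulator of neurons, differed by 0.67 ± 0.28 (adjusted p = 0.609), and Rbfox3, another, by 0.67 ± 0.36 (adjusted p = 0.722), with 0.23 and 0.13 at its other probes. At 3 of the 14, Elavl3, Nova2 and Rbfox3, the groups did not overlap, against 16.9% of all probes. Unadjusted p-values under 0.05 numbered 2 in this list, 3 among the intracellular partners, 1 among the LAR phosphatases and netrin-G ligands and 2 among the neurexin ligands.

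**Figure D4:**
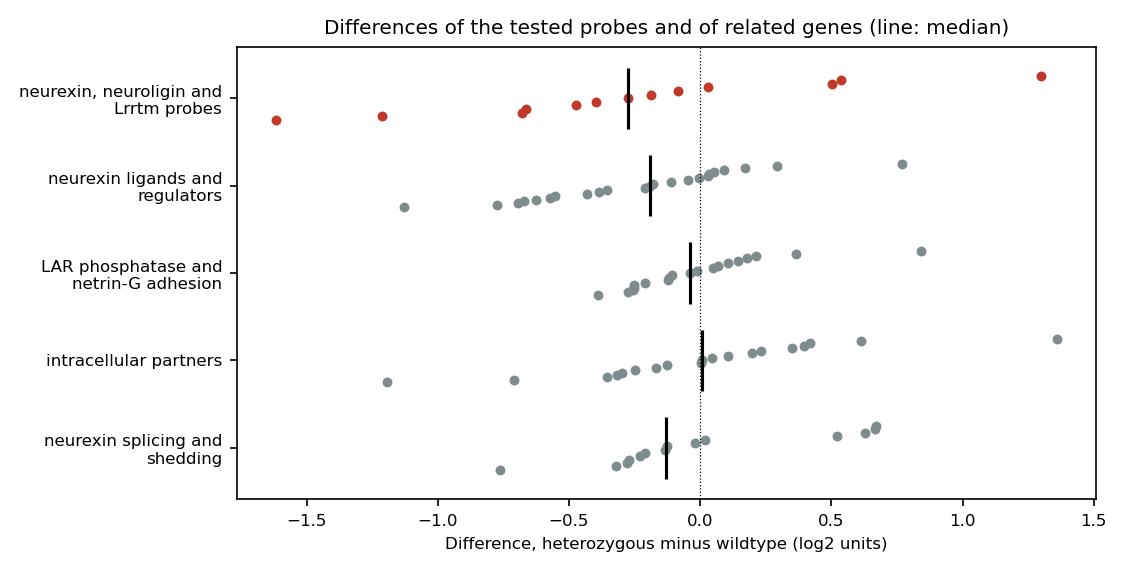
Difference between the genotypes, heterozygous minus wildtype in log2 units, of the 13 probes tested (red) and of the brightest tested probe of each gene in the 4 related lists (grey), with a black line at each median. The medians run between −0.28 for the neurexin, neuroligin and Lrrtm probes and 0.01 for the intracellular partners.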

How the data were processed

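The deposited scanner files hold raw spot and local background intensity for each channel and processed intensities, per the file headers, read with Agilent Feature Extraction 11.0.1.1. The authors' value table holds a ratio, the median spot signal minus median local background over the column's median, with no centring; this was found by setting the columns against the scanner values, and 100% were equal within rounding. From the deposited intensities, log2 values were made with limma 3.58.1 in R 4.3.3: normexp (offset 50), loess within and Aquantile between arrays. Outlier-flagged and control spots were left out. A probe was tested if well above background in at least 4 of 8 samples with a value in all 8. The fit (lmFit, eBayes) had dye as covariate and array as random block (correlation 0.81), with Benjamini-Hochberg adjustment over 18399 probes. All 4 arrays shared 1 slide and 1 scan.

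Alternatives tried were processed signals, the value table, median scaling, no array block, arrays as units, a replicate block, one dye only, other filters and leaving out each mouse or array. Replicates are separate mice by their labels, so p-values measure the spread between mice and arrays. The median signal was 3.72 to 10.47 times background. Accessions named 27234 of 39429 probes through a RefSeq table of names, and mm9 coordinates are the files'. All probes of the set were described. Up to 3 genes of each related list were named, those with the lowest unadjusted p, and 3 probes by likeness to the probe with the lowest p. Members and lists were chosen with earlier results of these data known. No annotation of exon or UTR positions was used. The coding parts named for Nrxn3 probes rest on the known reading frame of the gene, not on the deposited annotation.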

Additional observations from a re-analysis of the deposited data

Results flagged for a closer look

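Wildtype replicate 1 stood apart from the other wildtype mice at Nova2 A_55_P2016426, where it read 10.55 log2 units and the next wildtype mouse 10.89, a gap of 0.904 of the group's range. This was 1 of 54 groups of 4 mice examined, of which chance singles out about 1 in 20.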

How the results depend on the processing

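The count of probes past the adjusted test was 0 in the set under every setting but one: without the array block 529 probes of the array passed, 2 of them in the set (Nlgn3 A_55_P1960994 at an adjusted p of 0.0216 and Nrxn3 A_55_P2054640 at 0.0254). Leaving out a mouse or an array gave 0 to 17 probes over the whole array (1 without wildtype replicate 4 and 17, 14 and 5 without the arrays of wildtype replicates 1 and 2, wildtype replicates 3 and 4 and heterozygous replicates 3 and 4) and 0 to 0 in the set. With a replicate block 0 probes passed (lowest adjusted p = 0.274), and unadjusted p-values under 0.05 numbered 2090 on the array and 4 in the set. Same-numbered mice, separate animals by their labels, correlated at 0.0393, 0.255, 0.164 and 0.125. Differently numbered mice correlated at −0.234 to 0.221. Same-numbered mice also had the same dye, so these values cannot decide a pairing, and the number was not taken as one. At an unadjusted p under 0.05 the whole array had 1464 probes, 709 with the scanner's processed signals and 3864 without the array block. Nlgn3 A_55_P1960994 kept its sign throughout, between −1.93 and −1.30, and Nrxn3 A_55_P2054640 between −1.43 and −0.84. Signs turned with the processed signals at Nrxn3 A_55_P2165088 (0.13), Nrxn3 A_55_P1963889 (−0.046), Nlgn3 A_55_P2335903 (0.075), Ptprf (−0.19) and the probe pairs Nrxn3 A_55_P1963889 minus A_55_P2165088 (−0.17) and Lrrtm2 A_55_P2084413 minus A_55_P2084418 (−0.41). They turned in the authors' value table at Nrxn3 A_55_P1963889 (−0.022) and Lrrtm4 A_55_P2165210 (−0.29), with Cy3 samples alone at Nrxn3 A_55_P1963889 (−0.097) and with Cy5 samples alone at Nrxn3 A_55_P2165088 (0.0071). Over the settings that leave out a mouse or an array, signs turned at Nrxn3 A_55_P2165088 (−0.27 to 0.10), Nrxn3 A_55_P1963889 (−0.054 to 0.11), Lrrtm4 A_55_P2165210 (−0.17 to 2.77), Brd2 A_55_P1958678 (−0.27 to 0.84) and Ptprd (−0.067 to 0.50). The cause was not tested. The median of the 13 probes tested was −0.42 in the value table and ran between −0.40 and −0.17 without a mouse or an array. No median was taken over the 19 probes fitted with outlier spots kept, of which 8 were higher and 11 lower. That of splicing and shedding was 0.12 with the processed signals, −0.0076 without wildtype replicate 1 and 0.019 without wildtype replicate 4, and 0.11, 0.026 and −0.044 without the arrays of wildtype replicates 3 and 4, heterozygous replicates 1 and 2 and heterozygous replicates 3 and 4. That of neurexin ligands was −0.047 without wildtype replicate 1. Without the array of wildtype replicates 1 and 2, that of the LAR list was 0.12 and that of intracellular partners −0.22, which was 0.23 without the array of wildtype replicates 3 and 4.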
